A study of Rattus norvegicus with 24 samples.

Results

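Heat shock proteins and their co-chaperones were followed in 24 mRNA libraries of cultured rat heart muscle cells given doxorubicin, miRNA mimics or both. The members were taken by gene symbol: the small heat shock proteins (Hspb, with Cryab), the HSP70 and HSP110 families (Hspa, Hsph), the HSP90 and HSP60/HSP10 chaperones (Hsp90a, Hspd, Hspe), the J-domain proteins (Dnaja, Dnajb, Dnajc), Bag1 to Bag6, the Cct subunits and Hsf1. Hspa5 was left out by the rule. Of 86 matching symbols among 21767 in the table, 78 had a mean of at least 1 CPM (counts scaled to a fixed library total) over the 24 libraries and are the members; the rule uses no difference between groups. All 78 were among the 14303 genes tested, and the other 8 matching symbols, among them Hspb9 and Cct6b, lay below that level.

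The cells were neonatal ventricular myocytes of Sprague-Dawley rats, a primary culture of heart cells. They were transfected with mimics of miR-222-3p, of miR-455-3p, of both together, or with a negative control mimic, at 5 nM each, with the lipid carrier Lipofectamine RNAiMax. After 48 h they were exposed for 24 h to doxorubicin, an anthracycline cancer drug known for harming the heart, or to vehicle. The labels of the samples give the dose as 4 uM, while the text of the series gives millimolar for the same figure. This makes 8 groups of 3 libraries, in which all controls also carry a mimic and the carrier. Nothing in the labels says which animals or cultures the replicates came from, so every p-value here rests on the spread between these libraries alone, and that spread may be technical. In such bulk RNA, fewer cells of a type and less RNA per cell cannot be told apart.

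Chaperones bind unfolded proteins and help them fold, hold them soluble or pass them on for degradation. HSP70 proteins work in cycles of ATP use that J-domain proteins start and that nucleotide exchange factors, such as the BAG proteins and HSP110, complete. Small heat shock proteins hold unfolding clients without using ATP and are abundant in striated muscle, where several sit at the sarcomere. HSF1 is the transcription factor that drives the heat shock response, by binding inverted repeats of the bases GAA upstream of its targets. Heart muscle relies on this network because its contractile proteins are under constant mechanical load.

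The mature miRNAs that the mimics are named for are shown because their seeds, bases 2 to 8 in capitals, differ, so they form separate seed families. The sequences are those of RefSeq (build GRCr8), since the sources used here do not give the sequences of the mimics.
rno-miR-222-3p (chrX:6022682-6022702, plus strand): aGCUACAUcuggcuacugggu
rno-miR-455-3p (chr5:81704881-81704902, plus strand): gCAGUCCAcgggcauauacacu

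Library totals ranged from 17311955 to 25750311 counts, and 11469 to 13524 genes had at least 10 counts. Transcripts of the mitochondrial genome took 5.54% to 38.2% of the counts, and the members 0.793% to 1.26%. The 4 libraries with the fewest detected genes were replicate 1 of the treated and of the untreated control mimic, replicate 2 of the treated cells with both mimics and replicate 3 of the untreated cells with both mimics. Some untreated libraries were much closer to each other than replicates of other groups. Replicates 1 and 2 of miR-222 differed by a chi-square per degree of freedom of 5.79, replicates 1 and 3 of miR-455 by 6.98, and the first pair with both mimics (1 and 2) by 7.80. The treated miR-455 pairs lay at 7.81 to 9.79, and all other pairs at 51.4 to 575. None agreed within sampling noise, and each was counted as a sample. This does not show that they came from separate cultures. Cardiomyocyte markers (6 of 7 in the table) summed to 12568 to 35616 CPM in every library and fibroblast markers (6 of 7) to 14781 to 52778 CPM, so RNA typical of fibroblasts was present throughout. Endothelial markers (5 of 6) summed to 3.24 to 47.1 CPM, macrophage and leukocyte markers (6 of 6) to 1.11 to 10.8 CPM, and smooth muscle and pericyte markers (6 of 6) to 671 to 3642 CPM.

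Doxorubicin with the control mimic moved members of most families, in both directions. Of the 78 members, 19 passed an adjusted p of 0.05 in edgeR's quasi-likelihood test with Benjamini-Hochberg adjustment, 7 of them higher and 12 lower. The 24.4% called compares with 27.5% of all genes tested (15.2% higher and 12.3% lower), so the family as a whole was not called more often than other genes. The median log2 fold change of the members was -0.14, beside 0.02 over all genes. All log2 fold changes here are given ± the standard error, with 3 libraries a group, and levels are CPM scaled by TMM factors, in the order of replicates 1, 2 and 3. The plot of fold changes by role shows the calls in each family.

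**Figure D1:**
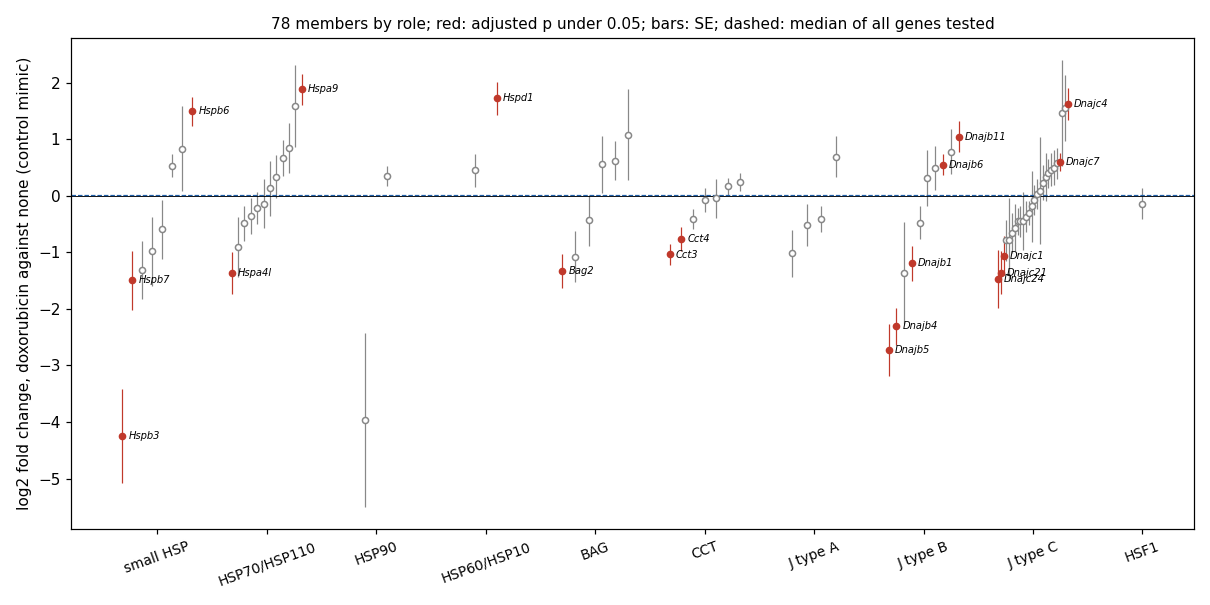
Log2 fold change (vertical axis) of doxorubicin against vehicle with the control mimic for the 78 members, grouped by role on the horizontal axis. Points are estimates, bars are standard errors, red marks an adjusted p under 0.05, and the dashed line is the median of all genes tested, 0.02. Hspb3 is lowest at -4.25 and Hspa9 highest at 1.88.

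Hspa9 and Hspd1, chaperones of the mitochondrial matrix, rose. Hspa9 encodes mortalin, the HSP70 of the mitochondrial matrix, which pulls imported proteins inward. Hspa9 stood at 624, 420.2 and 620.1 CPM in the untreated control-mimic libraries and at 2795, 1187 and 2158 CPM in the treated ones. The lowest treated library, replicate 2, was above all untreated ones, and the log2 fold change was 1.88 ± 0.28 (adjusted p = 5.25e-05). Hspd1 encodes HSP60, the barrel-shaped chaperonin of the matrix. Its levels were 570.3, 382 and 388 CPM untreated and 2121, 953 and 1358 CPM treated, without overlap and again highest in treated replicate 1. Hspd1 changed by 1.72 ± 0.29 (adjusted p = 0.000226). Hspe1, which encodes HSP10, the lid of that barrel, had 53.6, 59.4 and 48.4 CPM untreated and 116, 34.1 and 70.7 CPM treated. Treated replicate 2 was below all untreated libraries and the other treated ones above, so the groups overlapped and Hspe1 was not called, at 0.45 ± 0.30 (adjusted p = 0.281). Without treated replicate 2 the Hspe1 value was 0.79 (adjusted p = 0.0272), and without treated replicate 1 it was -0.04 (adjusted p = 0.929). Of 9 members listed for mitochondria, 2 rose, 0 fell and 7 were not called, with a median log2 fold change of 0.57. The list was chosen for this report and may not hold every mitochondrial member. Over all genes tested, 27.5% were called (15.2% higher and 12.3% lower) and the median was 0.02. The 7 members not called were Hspe1, the J-domain protein Dnaja3 at 0.69 ± 0.37, Dnajc11, Dnajc15, Dnajc19, Dnajc28 and Dnajc30. The share of counts from the mitochondrial genome was 20.3%, 13.5% and 9.11% in the untreated and 38.2%, 8.83% and 16.0% in the treated libraries, and its part in these levels was not tested. Without the 4 libraries with the fewest genes, Hspa9 changed by 1.61 (adjusted p = 0.000662) and Hspd1 by 1.51 (adjusted p = 3.28e-05).

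The promoter of Hspd1 is shown for its matches to the repeat that HSF1 binds. It has the most among members called with the control mimic whose promoter sequence was found. None was found for Dnajb4 and Dnajc24, which were also called. The window, from 250 bases before to 50 after the start, is from RefSeq (GRCr8, chr9:64083988-64084287, minus strand), with the elements in capitals.
Hspd1: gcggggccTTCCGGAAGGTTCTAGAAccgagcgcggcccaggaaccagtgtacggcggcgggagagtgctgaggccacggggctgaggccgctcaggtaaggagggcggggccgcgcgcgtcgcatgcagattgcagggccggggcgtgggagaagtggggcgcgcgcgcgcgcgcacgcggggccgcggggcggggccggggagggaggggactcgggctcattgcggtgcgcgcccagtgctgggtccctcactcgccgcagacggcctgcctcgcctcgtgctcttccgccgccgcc
The capitals mark GAANNTTC or TTCNNGAA, a repeat of 2 units on either strand, and the run holds 3 of these, overlapping, and 2 of the form with 3 units, GAANNTTCNNGAA or TTCNNGAANNTTC. Hspe1 lies next to Hspd1 on the opposite strand, and the windows of these genes share 211 identical bases that hold all of these elements. Both genes have the same elements, while Hspd1 was called and Hspe1 was not.

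Small heat shock proteins moved apart from one another. Of the 8 members, 1 rose, 2 fell and 5 were not called, and their median log2 fold change was -0.79. Over all genes tested, 15.2% rose, 12.3% fell and the median was 0.02. Hspb6, a small heat shock protein linked to relaxation of muscle, had 112, 84.9 and 111 CPM untreated and 351, 196 and 323 CPM treated, without overlap, a change of 1.50 ± 0.26 (adjusted p = 0.000240). Hspb3, a muscle form that pairs with Hspb2, had 69, 52.1 and 44.9 CPM untreated and 5.75, 2.32 and 0.871 CPM treated. Every treated library lay far below every untreated one, a change of -4.25 ± 0.83 (adjusted p = 0.000781). Hspb7, the cardiovascular small heat shock protein that limits actin filaments, had 301, 496 and 1186 CPM untreated and 203, 183 and 317 CPM treated. The groups overlapped and untreated replicate 3 stood high, with a change of -1.50 ± 0.52 (adjusted p = 0.0362). Without that library the Hspb7 value was -0.82 (adjusted p = 0.235).

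The other small heat shock proteins were not called with the control mimic. Cryab, the alpha-B crystallin that guards desmin and titin, had 799, 718 and 895 CPM untreated and 1312, 1124 and 1055 CPM treated. Its groups did not overlap, at 0.53 ± 0.21 (adjusted p = 0.0592). Hspb8, which works with Bag3 to send damaged proteins to autophagy, had 37.2, 64.5 and 196 CPM untreated and 30.9, 45.7 and 43.7 CPM treated. Hspb8 was at -1.31 ± 0.51 (adjusted p = 0.0648), and untreated replicate 3 was again the high library. Hspb1, which encodes HSP27 and caps actin, had 96.5, 157 and 511 CPM untreated and 79.9, 277 and 150.2 CPM treated. The ranges overlapped, and the log2 fold change of -0.59 ± 0.52 (adjusted p = 0.433) became 0.36 (adjusted p = 0.608) without untreated replicate 3. Hspb2, the partner of Hspb3, was at -0.99 ± 0.60 (adjusted p = 0.241), with 9.63, 27.5 and 65.8 CPM untreated and 6.66, 25.9 and 19.2 CPM treated. Hspb11, a protein of intraflagellar transport despite its name, was at 0.84 ± 0.75 (adjusted p = 0.440), with 16.7, 7.14 and 2.72 CPM untreated and 40.1, 3.04 and 4.54 CPM treated. Beside these, summed cardiomyocyte markers were 15629 to 17286 CPM untreated and 18151 to 25578 CPM treated, and fibroblast markers 19158 to 29706 CPM untreated and 23151 to 52778 CPM treated. Endothelial markers were 33.3 to 47.1 CPM untreated and 7.99 to 15.6 CPM treated, without overlap, with 1 of the 5 at 0 in the treated group. Smooth muscle and pericyte markers were 2211 to 3136 CPM and 1027 to 2386 CPM, and macrophage and leukocyte markers 7.37 to 8.65 CPM and 5.15 to 10.8 CPM. The part of these lists in the changes of the muscle forms was not tested.

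**Figure D2:**
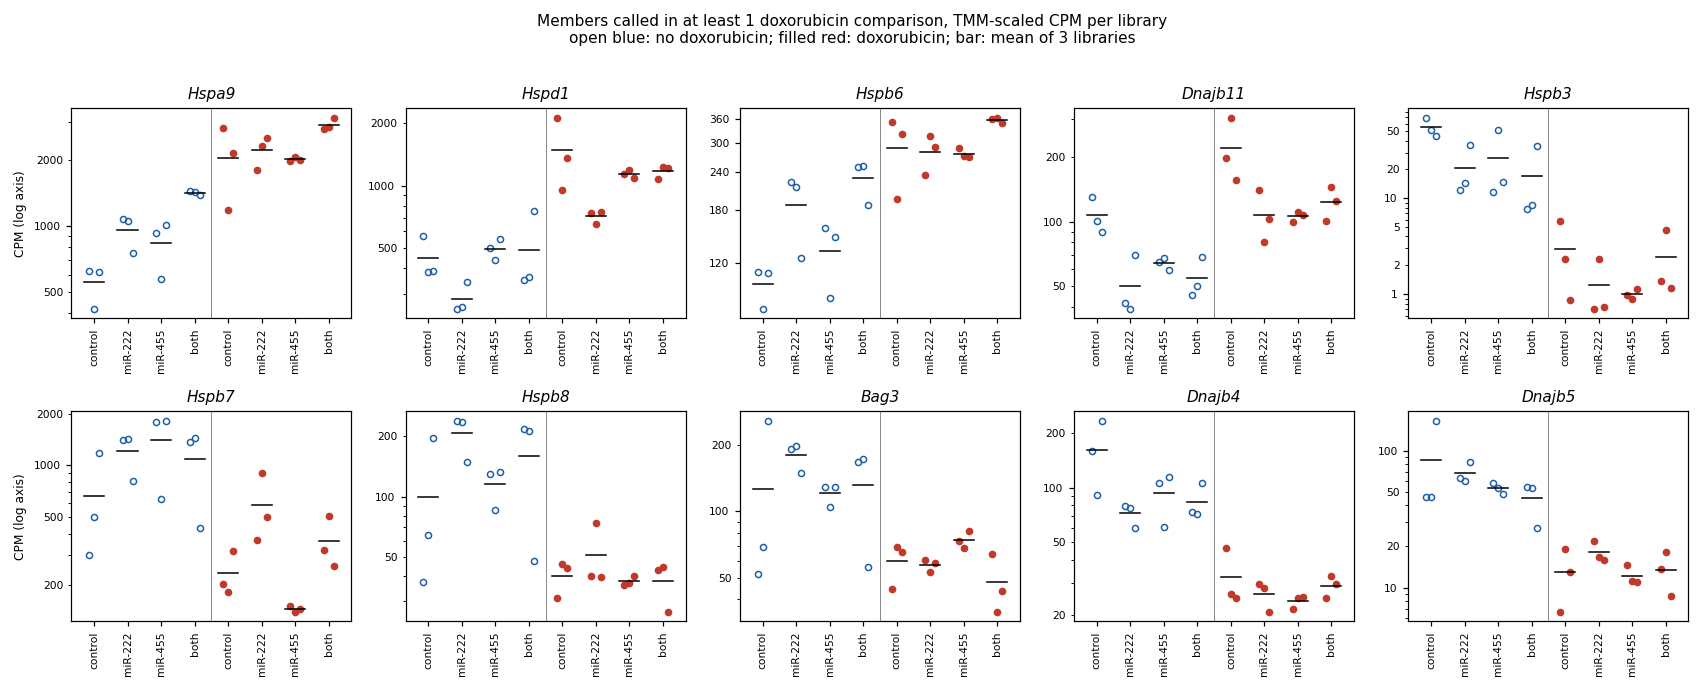
Level in CPM (log axis) of 10 members in each library, with vehicle groups as open blue circles and doxorubicin groups as filled red circles, by mimic on the horizontal axis; bars are means of 3 libraries. Hspa9 and Hspd1 are higher and Dnajb4, Dnajb5 and Hspb3 lower with doxorubicin under every mimic condition, while Hspb7, Hspb8 and Bag3 spread widely among untreated libraries.

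Among the cytosolic HSP70, HSP110 and HSP90 chaperones few changes passed the test. Hspa4l, a testis- and stress-linked HSP110, had 13.8, 9.76 and 21.2 CPM untreated and 5.35, 5.98 and 6.03 CPM treated, without overlap, and fell by 1.36 ± 0.37 on the log2 scale (adjusted p = 0.00974). Hspa8, the constitutive HSP70, had 466, 308 and 203 CPM untreated and 333, 79.5 and 109 CPM treated. Treated replicate 1 stood high and the groups overlapped, at -0.91 ± 0.52 (adjusted p = 0.212). Without that library the Hspa8 value was -1.79 (adjusted p = 0.0169). Hspa1b, the classical heat-induced HSP70, had 11.2, 6.98 and 88.4 CPM untreated and 43.7, 168 and 107 CPM treated. Untreated replicate 3 lay within the treated range and the log2 fold change was 1.58 ± 0.72 (adjusted p = 0.110). Without that replicate it was 3.50 (adjusted p = 0.000935). Hspa1b has a near-identical neighbour, Hspa1a, which was not analysed here, so the reads assigned to Hspa1b are uncertain. Hsph1, the inducible HSP110, was at -0.14 ± 0.43 (adjusted p = 0.849), with 94.5, 67.9 and 75.7 CPM untreated and 74.6, 76.5 and 65.3 CPM treated.

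The cytosolic HSP90 genes differed in how steady they were. Hsp90ab1, the constitutive form, had 1149, 1127 and 1385 CPM untreated and 1751, 1395 and 1524 CPM treated, at 0.35 ± 0.18 (adjusted p = 0.148). Every treated library was above every untreated one, but the difference was not called. Hsp90aa1, the inducible form, had 32.97, 5.12 and 2.37 CPM untreated and 0, 0 and 2.49 CPM treated. It is listed at 0 in 2 treated libraries and also in treated replicate 3 with both mimics, while treated replicate 2 with both mimics had 80 CPM. These counts are estimates that divide reads among similar transcripts, and a listed 0 may be a failed estimate, so its fold change, although plotted, is not read. Hsf1 itself, the regulator, had 16.99, 19.2 and 31.3 CPM untreated and 12.9, 23.7 and 24.4 CPM treated, overlapping, at -0.14 ± 0.27 (adjusted p = 0.741). The sign of the Hsf1 value turned without untreated replicate 3, at 0.12 (adjusted p = 0.788), and without treated replicate 1, at 0.09 (adjusted p = 0.824).

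**Figure D3:**
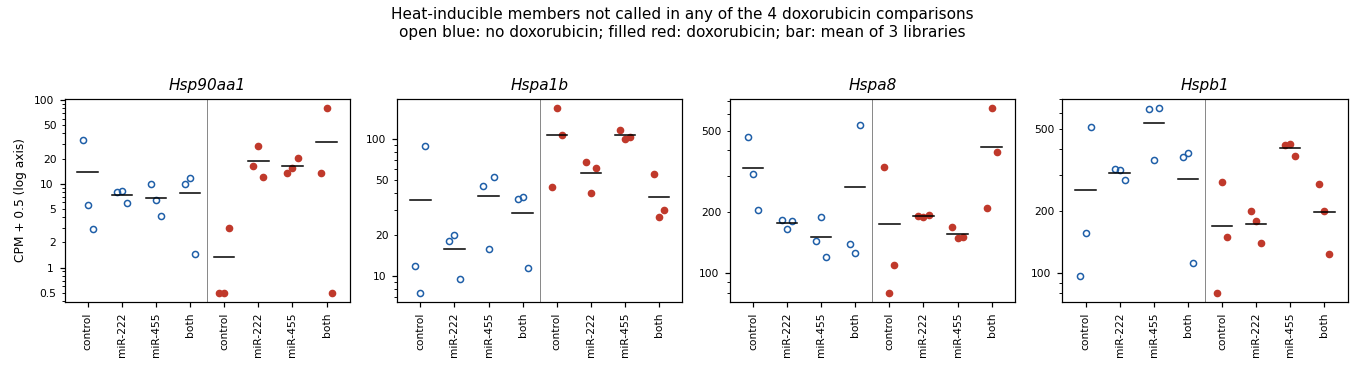
CPM plus 0.5 (log axis) of Hsp90aa1, Hspa1b, Hspa8 and Hspb1 in each library by mimic, with vehicle as open blue circles, doxorubicin as filled red circles and bars for means of 3 libraries. Libraries of 1 group lie as far apart as 88.4 and 6.98 CPM for Hspa1b with the control mimic and vehicle.

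J-domain proteins, which start the HSP70 cycle and choose its clients, make up 40 of the 78 members and held 10 of the 19 calls, about their share of the members. In type B, 2 of 10 rose and 3 fell, and in type C, 2 of 26 rose and 3 fell, while none of the 4 of type A was called. Dnajb4, a J protein whose loss causes a myopathy in people, had 158, 91.5 and 232 CPM untreated and 46.5, 26.1 and 24.7 CPM treated. The highest treated library was below the lowest untreated one, a change of -2.31 ± 0.33 (adjusted p = 3.30e-05). Dnajb5, which is known to bind class II histone deacetylases in heart muscle, had 45.7, 46.1 and 167 CPM untreated and 6.66, 19.3 and 13 CPM treated. It did not overlap and changed by -2.72 ± 0.46 (adjusted p = 0.000224), or by -1.87 (adjusted p = 0.00122) without untreated replicate 3, the high library. Dnajb1, the main heat-induced partner of HSP70, fell from 26.1, 33.2 and 59.3 CPM to 9.79, 19.9 and 21.8 CPM, a change of -1.20 ± 0.31 (adjusted p = 0.00793). Dnajb11, the J protein that serves BiP in the endoplasmic reticulum, rose from 130.2, 101 and 89.9 CPM to 199, 305 and 156 CPM, a change of 1.04 ± 0.27 (adjusted p = 0.00797). Dnajc4, a less studied member, rose from 7.41, 6.27 and 7.19 CPM to 27.2, 15 and 22.3 CPM, 1.63 ± 0.29 (adjusted p = 0.000307). In each of these 3 genes the treated and untreated libraries did not overlap.

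The other 5 J proteins called were Dnajc7, Dnajb6, Dnajc21, Dnajc24 and Dnajc1. Dnajc7, which bridges HSP70 and HSP90, rose by 0.59 ± 0.16 and Dnajb6, which keeps polyglutamine proteins from clumping, by 0.55 ± 0.19. Dnajc21, a ribosome biogenesis factor, changed by -1.36 ± 0.38, Dnajc24, which serves diphthamide synthesis, by -1.48 ± 0.51 and Dnajc1, a J protein of the endoplasmic reticulum, by -1.06 ± 0.35. Dnajc1 alone of these 5 had overlapping groups, with 61.3, 30.1 and 23.98 CPM untreated and 24.6, 15.1 and 15.8 CPM treated. Of 7 J proteins listed for the endoplasmic reticulum (Dnajb9, Dnajb11, Dnajc1, Dnajc3, Dnajc10, Dnajc16 and Dnajc25), 1 rose, 1 fell and 5 were not called. The list is not complete, since Dnajb12, a J protein of its membrane, is not in it.

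Bag2, which slows the ubiquitin ligase CHIP, was the single BAG gene called of 6. It had 56.5, 52.7 and 129.8 CPM untreated and 38.3, 30.8 and 25.8 CPM treated, without overlap, and changed by -1.33 ± 0.30 (adjusted p = 0.00248). Bag3, the partner of Hspb8 at the Z-disc, had 52.4, 68.8 and 257 CPM untreated and 44.6, 69.2 and 65.4 CPM treated, and was not called at -1.08 ± 0.45 (adjusted p = 0.0821). Untreated replicate 3 was the high library, and without it the Bag3 value was -0.07 (adjusted p = 0.895). The cytosolic chaperonin CCT folds actin and tubulin. Cct3 fell from 217, 189 and 239 CPM to 114, 100.4 and 100.1 CPM, -1.04 ± 0.18 (adjusted p = 0.000258), and Cct4 from 135, 146 and 205 CPM to 76.8, 97.3 and 112 CPM, -0.76 ± 0.21 (adjusted p = 0.0113). The other 5 CCT genes among the members were not called, with values from -0.41 ± 0.17 for Cct6a to 0.24 ± 0.16 for Cct7.

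In the limits of single libraries, U and T stand for the untreated and treated replicates of a comparison, and the figures in brackets are adjusted p-values from edgeR. Leaving out 1 library ended 8 of the 19 calls with the control mimic: Dnajb6 without U1, U2, U3, T2 or T3 (0.0554 to 0.150), Dnajc1 without U1, T2 or T3 (0.0988 to 0.196), Dnajc24 without U1, U2, T1 or T2 (0.0541 to 0.135), Cct4 without U3 (0.0503), Dnajc7 without U3 (0.0509), Hspb7 without U3, T1 or T2 (0.0869 to 0.235), Dnajb11 without T2 (0.0668) and Dnajc21 without T2 or T3 (0.0538 to 0.0581). Calls appeared for Bag3 without U1 or U2 (0.0187 to 0.0365), Hspb8 without U1 or U2 (0.0178 to 0.0484), Hspa1b without U3 (0.000935), Hspa8 without T1 (0.0169) and Hspe1 without T2 (0.0272). Hsp90aa1 also passed without U3 or T3 (0.0163 to 0.0408), but with its listed values of 0 this is not read as a change.

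Genes of the same network outside the members were followed in a list of 40, all of them in the table. With the control mimic, 10 rose and 8 fell, with a median of 0.19. Over all genes tested, 15.2% rose, 12.3% fell and the median was 0.02. Of the mitochondrial partners in the list, 5 rose: Clpb, a disaggregase, at 1.91 ± 0.17, Trap1, the mitochondrial HSP90, at 1.80 ± 0.29, Grpel1, an exchange factor of Hspa9, at 1.82 ± 0.35, and the proteases Clpp at 2.15 ± 0.40 and Lonp1 at 1.33 ± 0.37. The mitochondrial Grpel2, the other exchange factor, was at -0.84 ± 0.43 (adjusted p = 0.151), and Hscb, a J protein of iron-sulfur cluster assembly, at 0.32 ± 0.42 (adjusted p = 0.616). The other 5 that rose were Pfdn1, Pfdn5, Ahsa1, Stub1 and St13. Fkbp5, an HSP90 co-chaperone, fell by 1.41 ± 0.22. Hspa5, the BiP that Dnajb11 serves, changed by -1.14 ± 0.36, opposite in direction to Dnajb11, and Hsf2 by -1.44 ± 0.37. Cdc37l1, Stip1, Ptges3 and Unc45b were among the others that fell. Of 15 genes listed as induced by heat, 14 were in the table, of which 1 rose, 3 fell and 10 were not called, with a median of -0.55. The list includes the constitutive Hspa8 and Hsp90ab1. It also includes Hsp90aa1, whose fold change is not read but enters the median. Over all genes tested, 27.5% were called, 15.2% higher and 12.3% lower, and the median was 0.02. The 4 called among the 14 were Hspd1, higher, and Hspa4l, Dnajb1 and Dnajb4, lower.

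Promoter windows of 300 bases were found in RefSeq for 61 of the 78 members. The element of 2 units was in 19 of them (31.1%), beside 15.9% of all 33469 windows, and the element of 3 units in 6 (9.84%), beside 0.798%. The shorter element reads the same on both strands, and each longer one contains the shorter. Of the 19 members with an element, 4 rose, 3 fell and 12 were not called with doxorubicin and the control mimic; of the 42 without, 3 rose, 7 fell and 32 were not called. The windows of Dnajb1, Bag3 and Hspb8 are shown because these genes hold the element, as Hspd1 does, but had estimates below 0 with doxorubicin. Capitals mark GAANNTTC or TTCNNGAA. They lie at chr19:41431092-41431391 on the minus strand, chr1:192533210-192533509 on the plus strand and chr12:45837058-45837357 on the plus strand (GRCr8).
Dnajb1: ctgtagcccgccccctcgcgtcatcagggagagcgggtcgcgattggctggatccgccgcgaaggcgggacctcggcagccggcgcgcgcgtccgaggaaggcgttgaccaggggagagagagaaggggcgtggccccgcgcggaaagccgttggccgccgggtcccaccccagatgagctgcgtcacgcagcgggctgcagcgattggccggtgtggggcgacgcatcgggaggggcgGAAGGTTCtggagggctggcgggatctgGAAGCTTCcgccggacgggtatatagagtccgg
Bag3: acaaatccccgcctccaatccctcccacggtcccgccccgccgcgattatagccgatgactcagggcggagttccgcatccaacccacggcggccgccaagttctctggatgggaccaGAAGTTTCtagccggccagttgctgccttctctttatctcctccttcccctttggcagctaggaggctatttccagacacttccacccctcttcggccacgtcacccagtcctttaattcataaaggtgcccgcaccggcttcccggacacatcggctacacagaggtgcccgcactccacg
Hspb8: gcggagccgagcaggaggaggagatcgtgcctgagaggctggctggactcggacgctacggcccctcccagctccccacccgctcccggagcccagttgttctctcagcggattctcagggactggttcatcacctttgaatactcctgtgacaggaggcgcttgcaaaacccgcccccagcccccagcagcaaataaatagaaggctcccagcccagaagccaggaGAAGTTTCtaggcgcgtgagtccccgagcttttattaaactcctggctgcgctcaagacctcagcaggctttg
Dnajb1 has 2 elements, both near the start of the gene, and Bag3 and Hspb8 have 1 each. A match describes letters and does not show a binding site.

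Doxorubicin was also tested under each mimic. With miR-222, 10 of 78 members were called, 5 higher and 5 lower (12.8%), beside 14.6% of all genes tested (7.76% higher and 6.87% lower). With miR-455 the count was 15, 4 higher and 11 lower (19.2%), beside 18.1% of all genes tested (9.02% higher and 9.11% lower). With both mimics it was 18, 8 higher and 10 lower (23.1%), beside 15.1% of all genes tested (7.85% higher and 7.24% lower). Member medians were -0.01, -0.09 and -0.0046, beside -0.0036, 0.0039 and -0.07 over all genes. Over the 4 doxorubicin comparisons, which use different libraries, 32 members (41%) were called at least once, beside 36.9% of all genes tested. No member was called in both directions, as for all but 19 (0.133%) of the genes tested.

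Hspa9 and Hspd1 rose and Hspb3, Dnajb4 and Dnajb5 fell in all 4 comparisons, beside 4.12% of all genes tested higher and 3.13% lower in all 4. With both mimics, none of these 5 calls was kept when only the groups compared were fitted (adjusted p = 0.0761 to 0.160 in edgeR). With the closest untreated pairs counted as 1 sample, the calls of Hspa9, Hspd1 and Dnajb5 with both mimics were lost (0.0581 to 0.0755). Hspa9 had 1080.3, 1051 and 757 CPM untreated and 1807, 2319 and 2529 CPM treated with miR-222, a change of 1.20 ± 0.27. Hspa9 had 931, 574 and 1012 CPM and 1984, 2076 and 2011 CPM with miR-455, a change of 1.27 ± 0.27, and 1443, 1434 and 1381 CPM and 2771, 2824 and 3119 CPM with both, 1.03 ± 0.27. No treated library of Hspa9 overlapped the untreated ones of its mimic, though untreated levels were higher with both mimics than with the control mimic. Hspd1 had 255, 258 and 341 CPM untreated and 736, 653 and 748 CPM treated with miR-222, 1.32 ± 0.29. Its change was 1.20 ± 0.29 with miR-455 and 1.27 ± 0.29 with both, where untreated replicate 3 had 750.2 CPM and the treated libraries 1070.3, 1234 and 1219 CPM. In each group the Hspd1 ranges of treated and untreated libraries stayed apart.

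The muscle form Hspb3 fell under each mimic. Untreated Hspb3 levels were 12.2, 14.3 and 35.7 CPM with miR-222, 11.6, 51.9 and 14.7 CPM with miR-455 and 7.76, 8.59 and 34.7 CPM with both. Treated levels were 0.709, 2.31 and 0.743, 0.975, 0.898 and 1.14 and 1.37, 4.73 and 1.17 CPM. One untreated library in each of these groups stood high, and the highest treated library had 4.73 CPM. The Hspb3 changes were -4.06 ± 0.83, -4.69 ± 0.86 and -2.82 ± 0.78. Dnajb4 changed by -1.46 ± 0.32, -1.97 ± 0.32 and -1.53 ± 0.32 in the same order, and Dnajb5 by -1.92 ± 0.45, -2.13 ± 0.45 and -1.74 ± 0.45. Treated Dnajb4 libraries lay between 20.9 and 32.7 CPM under the mimics, and untreated ones between 60.1 and 115 CPM.

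Hspb8 and Bag3, partners in chaperone-assisted autophagy, were called lower under mimics. Hspb8 had 239, 235 and 149 CPM untreated and 39.8, 74.1 and 39.5 CPM treated with miR-222, without overlap, -2.02 ± 0.52 (adjusted p = 0.0122). It changed by -1.62 ± 0.52 (adjusted p = 0.0339) with miR-455 and -2.08 ± 0.53 (adjusted p = 0.0106) with both. Bag3 had 191, 198 and 149 CPM untreated and 60.1, 53.3 and 58.8 CPM treated with miR-222, -1.64 ± 0.46 (adjusted p = 0.0183). With both mimics Bag3 was at -1.47 ± 0.45 (adjusted p = 0.0339), with overlap through untreated replicate 3 at 56.05 CPM. With miR-455 Bag3 had 129, 105 and 129 CPM untreated and 73.9, 68.3 and 81.6 CPM treated, apart but not called, at -0.70 ± 0.45 (adjusted p = 0.320). Hspb7 had 1786, 633 and 1817 CPM untreated and 150.2, 140.2 and 145 CPM treated with miR-455, -3.28 ± 0.55 (adjusted p = 0.000377). With both mimics Hspb7 overlapped, at -1.58 ± 0.52 (adjusted p = 0.0442), and with miR-222 it was not called, at -1.04 ± 0.51 (adjusted p = 0.200). Hspb2 fell with miR-455 by 2.14 ± 0.62 and, with overlap, with both mimics by 2.14 ± 0.63.

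Further calls were higher for Hsp90ab1, at 0.77 ± 0.18 with miR-222 and 0.72 ± 0.18 with both, and for Dnajb11, at 1.10 ± 0.27 and 1.17 ± 0.28. Cct5 rose by 0.47 ± 0.15 and 0.44 ± 0.15 in the same pair of comparisons. Hspb6 rose by 1.07 ± 0.25 and Dnajc19, a J protein of the mitochondrial import motor, by 0.99 ± 0.27 with miR-455. With miR-455, Hspa4l changed by -1.60 ± 0.37, Dnajc12 by -1.32 ± 0.37, Dnajc21 by -1.23 ± 0.38, Cct4 by -0.76 ± 0.21 and Dnajc11, which is tied to the shape of mitochondrial cristae, by -0.70 ± 0.22. With both mimics, Cryab rose by 0.62 ± 0.21, Dnajc30 by 0.89 ± 0.26 and Dnajc6, the clathrin-uncoating auxilin, by 3.06 ± 0.97. Dnajc6 was scarce, with 0.543, 0.669 and 0 CPM untreated and 3.29, 2.43 and 4.63 CPM treated. Dnajb1 changed by -1.35 ± 0.32, Dnajc5, a synaptic vesicle J protein, by -0.93 ± 0.28 and Hsf1 by -0.84 ± 0.28 with both mimics. Of the 40 other network genes, 6 rose and 4 fell with miR-222, beside 7.76% and 6.87% of all genes tested. With miR-455, 2 rose and 8 fell, beside 9.02% and 9.11%. With both, 6 rose and 4 fell, beside 7.85% and 7.24%.

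Leaving out 1 library ended these calls with miR-222: Bag3 without U1, U2, T1, T2 or T3 (0.0590 to 0.0674), Cct5 without U1, U2, U3, T2 or T3 (0.0805 to 0.143), Dnajb11 without U1, U2 or T1 (0.0570 to 0.0697) and Hspb8 without T1 or T3 (0.0631 to 0.0658). With miR-455 the calls lost were Cct4 without U1, U3, T1, T2 or T3 (0.0509 to 0.0812), Dnajc11 without U1, U3, T1, T2 or T3 (0.0533 to 0.0957), Dnajc19 without U1, U2, T2 or T3 (0.0505 to 0.0585), Dnajc21 without U1, U3, T1, T2 or T3 (0.0601 to 0.105), Hspb8 without U1, U3, T1, T2 or T3 (0.0889 to 0.104), Dnajc12 without T1 or T2 (0.0797 to 0.0879) and Hspb2 without T1, T2 or T3 (0.0645 to 0.0812). With both mimics they were Bag3 without U1, U2, T2 or T3 (0.108 to 0.135), Cct5 without U1, U2, U3, T1, T2 or T3 (0.0659 to 0.131), Cryab without U1, U2 or T2 (0.105 to 0.242), Dnajb5 without U1 or T3 (0.0515 to 0.0658), Dnajc30 without U1, U2, T2 or T3 (0.0644 to 0.0839), Dnajc5 without U1, U2, U3, T1 or T2 (0.0520 to 0.103), Dnajc6 without U1, U2, U3, T1 or T3 (0.0547 to 0.104), Hsf1 without U1, U2, T2 or T3 (0.121 to 0.173), Hspb2 without U1, U2, T2 or T3 (0.0756 to 0.112), Hspb7 without U1, U2, T1 or T3 (0.107 to 0.163), Hspb8 without U1, U2 or T3 (0.0511 to 0.0591) and Hspb3 without U3, T1 or T3 (0.0678 to 0.0982).

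The mimics were compared with the control mimic in vehicle first, where no doxorubicin was given. With miR-222, 7 members were called, 2 higher and 5 lower (8.97%), beside 8.97% of all genes tested (4.5% higher and 4.47% lower). With miR-455, 4 were called, 1 higher and 3 lower (5.13%), beside 4.72% of all genes tested (2.47% higher and 2.25% lower), and with both mimics 7, 6 higher and 1 lower (8.97%), beside 7.06% of all genes tested (3.67% higher and 3.39% lower). Each share was near that of all genes. All of these calls were lost, leaving 0, 0 and 0, both when only the groups compared were fitted and when the closest pairs were counted as 1 sample. The 3 comparisons share their control libraries, and 0 members were called under all 3. Member medians were -0.18, 0.06 and 0.0026, beside 0.06, 0.06 and 0.07 over all genes.

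With miR-222, Dnajb11 had 41.6, 39.3 and 70.2 CPM beside 130.2, 101 and 89.9 CPM with the control mimic, apart from each other, -1.09 ± 0.27 (adjusted p = 0.0185). Dnajc3, a co-chaperone of BiP that also restrains kinases of the stress response, was at -1.51 ± 0.42, with 29.8, 27.8 and 41.8 CPM beside 144, 86.95 and 51.98 CPM. Dnajb4 was at -1.15 ± 0.31, Bag2 at -0.99 ± 0.30 and Cryab at -0.66 ± 0.21. Dnajc4 rose by 1.09 ± 0.28 and Hspb6 by 0.87 ± 0.25. In all 7 the libraries of the groups did not overlap.

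With miR-455, Dnajc10, a disulfide reductase of the endoplasmic reticulum, had 17.2, 51.1 and 16.7 CPM beside 147, 117 and 96.8 CPM, -2.08 ± 0.44 (adjusted p = 0.0160). Replicate 2 stood above the other miR-455 libraries but below all controls. Dnajc16, a J protein of the endoplasmic reticulum linked to autophagy, had 24.4, 16.7 and 23.8 CPM beside 6.94, 7.06 and 7.81 CPM, 1.57 ± 0.27 (adjusted p = 0.00620). Dnajc9, a J protein that handles histones, was at -1.18 ± 0.31 and Dnajc7 at -0.57 ± 0.16. Dnajc7 had 47.8, 53.8 and 48.1 CPM beside 77.3, 77.3 and 67.4 CPM, without overlap. Beside these vehicle values, cardiomyocyte markers summed to 24631 to 32859 CPM with miR-455 and 15629 to 17286 CPM with the control mimic, without overlap. Smooth muscle and pericyte markers were 801 to 1807 CPM with miR-222, 1165 to 1802 CPM with miR-455 and 2211 to 3136 CPM with the control mimic. Endothelial markers were 18.1 to 28.8 CPM with miR-222 and 13.1 to 13.3 CPM with both, beside 33.3 to 47.1 CPM. The part of these lists in the mimic values was not tested.

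With both mimics, Hspa9 had 1443, 1434 and 1381 CPM beside 624, 420.2 and 620.1 CPM, 1.35 ± 0.27 (adjusted p = 0.00629), a tight group well above the controls. Dnaja3, the J partner of Hspa9 in mitochondria, had 141, 127 and 81.8 CPM beside 57.5, 43.99 and 46.6 CPM, 1.24 ± 0.37 (adjusted p = 0.0465). Dnajc4 rose by 1.29 ± 0.28, Hspb6 by 1.16 ± 0.25, Dnajc16 by 1.12 ± 0.27 and Hspa2, an HSP70 best known from the testis, by 1.05 ± 0.32. Dnajb11 was lower by 0.97 ± 0.27. Of the 9 members listed for mitochondria, 2 rose, 0 fell and all 9 estimates were above 0, with a median of 0.78. Only Hspa9 and Dnaja3 of this list were called. The estimates ran from 0.12 ± 0.29 for Hspd1 to 1.35 ± 0.27 for Hspa9. Over all genes tested, 53.6% of estimates were above 0, the median was 0.07 and 3.67% were called higher. Of the other 40 network genes, 2, 2 and 4 rose with miR-222, miR-455 and both, and 0 fell in each. Beside these, 4.5%, 2.47% and 3.67% of all genes tested rose, and 4.47%, 2.25% and 3.39% fell.

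In the limits that follow, C and M stand for the control-mimic and mimic replicates. In vehicle the calls lost with miR-222 were Cryab without C1, C2, C3, M1 or M2 (0.0647 to 0.169), Dnajb11 without C1, M1 or M2 (0.0756 to 0.0985), Dnajb4 without C1, C3, M1, M2 or M3 (0.0629 to 0.0883), Dnajc3 without C1, C2, M1 or M2 (0.0548 to 0.165), Dnajc4 without C1, C2, M1 or M2 (0.0711 to 0.131), Hspb6 without C1, C2, C3, M1 or M2 (0.0521 to 0.195) and Bag2 without C3, M1 or M2 (0.137 to 0.184). With miR-455 they were Dnajc10 without C1, M1 or M3 (0.0553 to 0.121), Dnajc7 without C1, C2, M1 or M3 (0.104 to 0.201), Dnajc9 without C1, C2, M1 or M3 (0.0602 to 0.228) and Dnajc16 without M1 (0.0555). With both mimics they were Dnaja3 without C1, C2, C3, M1 or M2 (0.0949 to 0.195), Dnajb11 without C1, C2, M1 or M2 (0.0663 to 0.154), Dnajc16 without C1, C2, M1 or M2 (0.0639 to 0.0862), Dnajc4 without C2 or M2 (0.0545 to 0.0585), Hspa2 without C2, C3, M1 or M2 (0.139 to 0.199) and Hspb6 without C2, M1 or M2 (0.0600 to 0.0648).

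With doxorubicin present, the mimics were again set against the control mimic. These are mRNA levels, and protection from the drug was not tested. With miR-222, 6 members were called, 1 higher and 5 lower (7.69%), beside 3.95% of all genes tested (1.59% higher and 2.36% lower). With miR-455, 4 were called, 1 higher and 3 lower (5.13%), beside 2.5% of all genes tested (0.657% higher and 1.85% lower). With both mimics, 8 were called, 5 higher and 3 lower (10.3%), beside 5.55% of all genes tested (2.78% higher and 2.78% lower). Fitted on only the groups compared, they were 0, 2 and 0. With the closest pairs of untreated mimic libraries counted as 1 sample, they were 1, 2 and 3. That setting merged no treated library, so it does not check how close the treated miR-455 libraries lie. These comparisons share their control libraries. Member medians were -0.01, -0.11 and 0.10, beside -0.0021, 0.02 and -0.06 over all genes.

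Dnajc9 was lower with every mimic condition under doxorubicin. It had 64.8, 50.6 and 34.2 CPM with the control mimic, 17.3, 23.1 and 17.7 CPM with miR-222, 17.5, 17.95 and 20.2 CPM with miR-455 and 13.8, 15.7 and 20.4 CPM with both. No mimic library reached the lowest control, and the changes were -1.36 ± 0.31 (adjusted p = 0.0153), -1.43 ± 0.32 (adjusted p = 0.0154) and -1.58 ± 0.32 (adjusted p = 0.00431). Dnajc7 had 124, 104 and 107 CPM with the control mimic, 119, 120.0 and 129.8 CPM with miR-222, 46.5, 54.7 and 58.1 CPM with miR-455 and 68.9, 68.8 and 78.7 CPM with both. Under doxorubicin it was lower with miR-455, at -1.07 ± 0.16 (adjusted p = 0.000612) alone and -0.63 ± 0.16 (adjusted p = 0.0227) with miR-222, and at 0.14 ± 0.16 (adjusted p = 0.731) with miR-222 alone. In vehicle, Dnajc7 with both mimics was at -0.04 ± 0.16 (adjusted p = 0.915), with 64.9, 63.6 and 87.4 CPM. Dnajc16 moved the other way, with 4.95, 7.32 and 8.33 CPM under the control mimic, 11.5, 14.8 and 15.8 CPM with miR-455 and 14.02, 11.6 and 17.2 CPM with both. Its changes were 1.03 ± 0.27 and 1.05 ± 0.27, without overlap. Dnajb11 was lower by 1.03 ± 0.27 with miR-222 and by 1.05 ± 0.27 with miR-455, with 199, 305 and 156 CPM in the controls and 99.9, 111 and 108 CPM with miR-455.

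**Figure D4:**
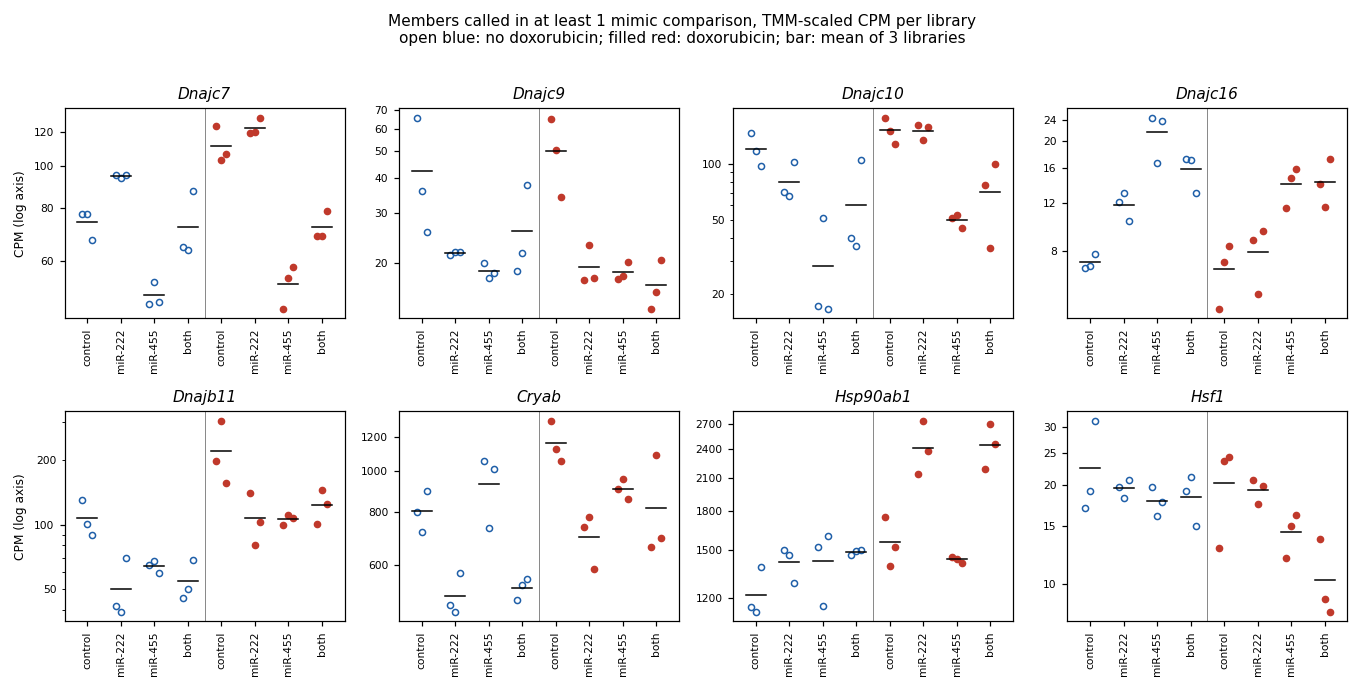
CPM (log axis) of 8 members in each library by mimic, with vehicle as open blue circles, doxorubicin as filled red circles and bars for means of 3 libraries. Dnajc7 is low and Dnajc16 high with miR-455 alone in vehicle and in doxorubicin, while Dnajc7 in vehicle with both mimics (-0.04 on the log2 scale) was not called against the control mimic, and Hsp90ab1 is high in treated groups that hold the miR-222 mimic.

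Other calls under doxorubicin included the abundant Hsp90ab1, Hspd1 and Cryab and several scarcer members. Hsp90ab1 had 1751, 1395 and 1524 CPM with the control mimic, 2136, 2742 and 2384 CPM with miR-222 and 2186, 2702 and 2463 CPM with both, and the libraries did not overlap. It changed by 0.64 ± 0.18 (adjusted p = 0.0465) and 0.65 ± 0.18 (adjusted p = 0.0323). Hspd1 was lower with miR-222, with 736, 653 and 748 CPM beside 2121, 953 and 1358 CPM, -1.05 ± 0.29 (adjusted p = 0.0442). Cryab was lower with miR-222 in doxorubicin as in vehicle, with 738, 776 and 586 CPM beside 1312, 1124 and 1055 CPM, -0.73 ± 0.21 (adjusted p = 0.0497). Dnajb6 was at -0.81 ± 0.19 with miR-222. With both mimics, Dnajc1 had 40.1, 79.2 and 55.6 CPM beside 24.6, 15.1 and 15.8 CPM, 1.66 ± 0.35 (adjusted p = 0.00662), Dnajc24 rose by 1.81 ± 0.52 and Hspa4l by 1.43 ± 0.37. Hsf1 had 13.7, 9.02 and 8.26 CPM with both mimics beside 12.9, 23.7 and 24.4 CPM, overlapping, -0.98 ± 0.28 (adjusted p = 0.0422). Among the other 40 network genes, 1 rose with miR-222, 2 fell with miR-455 and 1 rose with both, Hspa5 at 1.68 ± 0.36. Beside these, 1.59% of all genes tested rose with miR-222, 1.85% fell with miR-455 and 2.78% rose with both.

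In doxorubicin the calls lost with miR-222 were Cryab without C1, C2, C3, M1, M2 or M3 (0.0626 to 0.253), Dnajb11 without C1, C2, M2 or M3 (0.0666 to 0.215), Dnajc9 without C1, M1 or M3 (0.0750 to 0.0920), Hsp90ab1 without C1, C2, C3, M1, M2 or M3 (0.0514 to 0.225), Hspd1 without C1, C3, M1, M2 or M3 (0.0641 to 0.290) and Dnajb6 without C2, M2 or M3 (0.0794 to 0.107). With miR-455 they were Dnajb11 without C1, C2, M1, M2 or M3 (0.0749 to 0.237), Dnajc16 without C1, C2, M1, M2 or M3 (0.0707 to 0.211) and Dnajc9 without C1, M1, M2 or M3 (0.0718 to 0.0944), while the Dnajc7 call held in each. With both mimics they were Dnajc16 without C1, C2 or M3 (0.0619 to 0.103), Dnajc24 without C1, C2, C3, M2 or M3 (0.0638 to 0.165), Dnajc7 without C1, M1 or M2 (0.0512 to 0.0773), Hspa4l without C1, C2, C3, M2 or M3 (0.0585 to 0.136), Hsf1 without C2, C3, M2 or M3 (0.149 to 0.164) and Hsp90ab1 without C2, C3, M2 or M3 (0.0848 to 0.121).

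The combination was set against each mimic alone under doxorubicin. The labels give 5 nM of each mimic and do not say whether total mimic was made equal between groups. An effect of the combination and one of total mimic dose therefore cannot be told apart. Against miR-222, 0 members were called in edgeR's quasi-likelihood test, beside 0.161% of all genes tested (0% higher and 0.161% lower). Without adjustment 19 had a p under 0.05, and DESeq2 called 1, Dnajc7, lower with both. Against miR-455, 2 were called, both higher (2.56%), beside 2.48% of all genes tested (1.55% higher and 0.93% lower). They were Dnajc18, a membrane-bound J protein, at 1.18 ± 0.27 (adjusted p = 0.0243), and Hsp90ab1 at 0.77 ± 0.18 (adjusted p = 0.0224). Dnajc18 had 28.2, 63.02 and 34.97 CPM with both and 18.3, 20.7 and 16.6 CPM with miR-455, and Hsp90ab1 2186, 2702 and 2463 CPM and 1457, 1443 and 1413 CPM, without overlap in either. With B for both mimics and S for the single mimic, these calls were lost for Dnajc18 without S1, S2, S3 or B2 (0.0788 to 0.210) and Hsp90ab1 without S1, S2, S3, B2 or B3 (0.0656 to 0.126).

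Whether a mimic changed the response to doxorubicin was tested as the difference between the doxorubicin effects with the mimic and with the control mimic. No member was called for miR-222, miR-455 or both in edgeR's quasi-likelihood test, beside 0.0489% of all genes tested (0.00699% higher and 0.0419% lower), 0% and 0.0559% of all genes tested (0.00699% higher and 0.0489% lower). Without adjustment 8, 11 and 14 members had a p under 0.05, and DESeq2 called 2, 0 and 3. The DESeq2 calls were Cct3 and Dnajb6 for miR-222, and Cct3, Dnajb6 and Dnajc4 for both. A change called with 1 mimic and not with the control mimic, such as Bag3 or Hsp90ab1, is therefore not shown to differ between them. Over the 15 comparisons in all, 39 of 78 members (50%) were called in none, beside 56.7% of all genes tested.

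The 4 libraries with the fewest genes were also left out together. The members called in the doxorubicin comparisons were then 31, 26, 27 and 32 for the control mimic, miR-222, miR-455 and both. The shares of all genes rose with them, to 37.9%, 33.9%, 38.3% and 32.9%. In vehicle 14, 7 and 19 members were called for miR-222, miR-455 and both, beside 19.6%, 13.8% and 25.7% of all genes. In doxorubicin 11, 7 and 19 were called, beside 8.38%, 5.03% and 13%. The combination gave 1 call against miR-222 (Dnajc7) and 8 against miR-455, beside 0.629% and 5.39%. The differences in response gave 3 for miR-222 (Cct3, Dnajc1 and Hspa8), 0 for miR-455 and 10 for both, beside 1.02%, 0.436% and 11%. For both mimics, the 10 were led by Hspa8, at 2.68 (adjusted p = 0.00506 in edgeR), with Dnajc13, Hspa12a, Bag2, Dnajc1, Hspa2, Dnaja1, Dnajb6, Cct3 and Hspa13. This difference lost 1 library from each of its 4 groups. The untreated libraries left with both mimics were replicates 1 and 2, the close pair with a chi-square per degree of freedom of 7.80. The replicate 3 left out was the high one for Hspa8. With all libraries, 0.0559% of all genes were called for this difference.

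Members varied among replicates to very different degrees. The within-group SD on the log2(CPM + 0.5) scale had a median of 0.405 over the 78 members and ran from 0.110 to 1.70. Only Hsp90aa1 at 1.70 and Dnajc22 at 1.15 exceeded 1, followed by Hspa1b at 0.954. In untreated cells with both mimics, replicate 3 stood apart from replicates 1 and 2 in opposite directions for different families. It was low for Hspb7 (1375, 1439 and 432 CPM), Hspb8 (219, 214 and 47.6 CPM), Bag3 (168, 172 and 56.05 CPM) and Hspb1 (365, 382 and 112 CPM). It was high for Hspa8 (138, 126 and 532 CPM), Hsph1 (31.1, 29.8 and 93 CPM), Dnaja1 (69.1, 67.3 and 190.3 CPM) and Dnajc3 (38.4, 37.3 and 121 CPM). The mitochondrial share of counts in these libraries was 8.16%, 6.82% and 24.9%. Untreated control replicate 1 was likewise the lowest of its group for Hspb7, Hspb8, Bag3 and Hspb1 and the highest for Hspa8, Hsph1, Dnaja1 and Dnajc3, with a mitochondrial share of 20.3%. Treated libraries with high shares followed this in part. Treated control replicate 1 (38.2%) did so except for Hspb7 and Hsph1. Treated replicate 2 with both mimics (21.3%) did so for Bag3, Hspa8, Dnaja1 and Dnajc3. It was instead the highest for Hspb7 and Hspb8, the lowest for Hsph1 and in between for Hspb1. These patterns were picked after the values were seen, and the part of library quality in them was not tested.

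Neighbouring members were compared within libraries, as a description of pairs picked after their values were seen. RefSeq (GRCr8) places Hspd1 beside Hspe1 and Cryab beside Hspb2, with 0 genes between and overlapping ranges. The log2 ratio of Hspd1 to Hspe1 CPM had a median of 2.57 (range 2.01 to 3.41) over 12 untreated libraries and 3.41 (range 2.83 to 4.80) over 12 treated ones. In 6 of the 12 treated libraries it was above every untreated library. The log2 ratio of Cryab to Hspb2 had a median of 4.14 (range 3.35 to 6.50) untreated and 6.12 (range 5.31 to 8.12) treated, and 3 of 12 treated libraries were above every untreated one. With the mimic conditions pooled, the ratio ranges of both pairs overlapped. Within each mimic condition, every treated Hspd1 to Hspe1 ratio was above every untreated one, most narrowly with miR-222 (2.79 untreated, 2.83 treated). The Cryab to Hspb2 ratios were apart with miR-222 and with miR-455 and overlapped with the control mimic and with both. The highest untreated Cryab to Hspb2 ratios came from replicate 1 of the control mimic and replicate 3 of both mimics. These are among the 4 libraries with the fewest genes. The overlap of the gene ranges means that reads of neighbours could be shared where counting ignores strand.

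**Figure D5:**
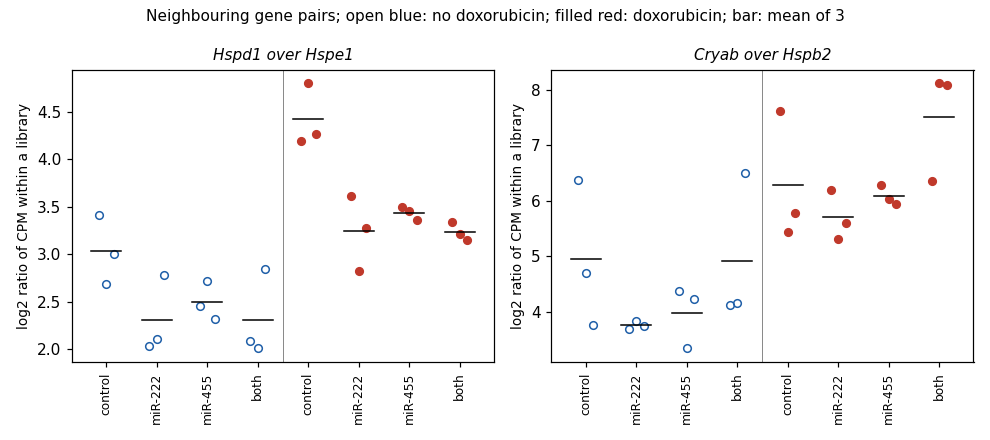
Log2 ratio of CPM within each library for Hspd1 over Hspe1 (left) and Cryab over Hspb2 (right), by mimic, with vehicle as open blue circles, doxorubicin as filled red circles and bars for means of 3 libraries. Treated libraries reach 4.80 and 8.12, and untreated ones 3.41 and 6.50.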

How the data were processed

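Poly(A) RNA libraries of 24 samples were read from 1 table of the authors' deposited estimated counts (expected counts per gene symbol). Per the submitters' processing notes, Salmon, DESeq2 and the rat build Rnor_6.0 were used, and the sources used here do not give versions or settings. Of the 522408 values, 7.35% (38406) were not whole, so all were rounded. In R 4.3.3, edgeR 4.0.16 was run on all 24 libraries with filterByExpr by group, TMM factors, a means model of the 8 groups and the quasi-likelihood F test, with Benjamini-Hochberg adjustment over 14303 genes and a threshold of 0.05. The standard error is the fold change over the square root of F. The script was tested on simulated data. Levels are CPM scaled by TMM. DESeq2 1.42.0 was an alternative. Other alternatives were DESeq2 size factors, no filter on low counts, a replicate block, only the groups compared, leaving out single libraries or the 4 with the fewest genes, and, chosen after seeing the data, closest pairs counted as 1 sample. That last setting summed 1 pair in each untreated mimic group and left every treated library as its own sample. Members could all be named. Called members are given with fold changes, as are 15 stress genes whether called or not. The members, roles, network list and cell markers were chosen with earlier results of these data known. Hspa1a and some markers are not analysed here. Depth sets precision for scarce members, and counting intervals would not cover differences between samples.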

Additional observations from a re-analysis of the deposited data

How the results depend on the processing

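Counts of called members depended on how the spread was estimated. Fitted on only the groups compared, the doxorubicin counts were 8, 26, 32 and 0 for the control mimic, miR-222, miR-455 and both. In vehicle they were 0, 0 and 0 for miR-222, miR-455 and both, in doxorubicin 0, 2 and 0, and for both against miR-455 0. Without the 4 libraries with the fewest genes they were 31, 26, 27 and 32 for doxorubicin, 14, 7 and 19 in vehicle, 11, 7 and 19 in doxorubicin, 1 and 8 for both against miR-222 and miR-455, and 3 and 10 for the differences in response with miR-222 and both. The DESeq2 Wald test gave 15 (miR-222) and 8 (miR-455) in vehicle, 18 for both in doxorubicin, 1 and 6 for both against miR-222 and miR-455, and 2 and 3 for the differences in response. Counting closest pairs as 1 sample was an alternative chosen after seeing the data. It summed pairs of untreated mimic libraries only, and the treated miR-455 libraries stayed as 3 samples. The counts were then 6, 8 and 2 for doxorubicin with miR-222, miR-455 and both, and 0, 0 and 0 in vehicle. They were 1, 2 and 3 in doxorubicin and 1 for both against miR-455. Without the filter on low counts they were 2, 2 and 4 for the mimics in doxorubicin and 1 for both against miR-455. Of 100 calls of a gene in a comparison, 23 were kept in each of its settings, 0 reversed, and 66 were lost in fits of only the groups compared; the cause was not tested.

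With single libraries left out, counts ran from 17 to 21, 7 to 9, 8 to 19 and 7 to 19 for doxorubicin with the control mimic, miR-222, miR-455 and both. They ran from 0 to 9, 0 to 13 and 1 to 17 for the mimics in vehicle, and 0 to 4, 1 to 4 and 3 to 13 in doxorubicin. For both against miR-222 they stayed at 0 and against miR-455 ran from 0 to 5. Differences in response gave 0, 0 and 0 to 7. Uncalled values for doxorubicin with the control mimic changed sign for Hspe1, at -0.12 without the 4 libraries and -0.040 to 0.79 over single libraries left out (negative without treated replicate 1). So did Hsf1, at -0.38 to 0.12 (positive without untreated replicate 3, and 0.09 without treated replicate 1), and Hspb1, at -1.15 to 0.36 (positive without untreated replicate 3).

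The groups share replicate numbers, but no comparison had all 3 same-numbered correlations over 0.1 (range -0.58 to 0.45), so the numbers are not taken to pair the samples. With the replicate block, the counts became 2 for miR-455 in vehicle, and 2, 2 and 5 for miR-222, miR-455 and both in doxorubicin, and 23 of the 100 calls were lost. Depth limits scarce members such as Dnajc6, Hspb3 under doxorubicin and Hsp90aa1.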

Other observations

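Of the 7 CCT subunits among the members, 4 were called in none of the 15 comparisons (Cct2, Cct6a, Cct7 and Cct8), beside 56.7% of all genes tested. The other 3 were called at least once (Cct3, Cct4 and Cct5). The genes that follow were picked by the ratio of their highest to lowest group mean, after their values were seen. Cct6a, a subunit of the ring that folds actin and tubulin, stayed between 88.6 and 145 CPM over all 24 libraries, and its highest group mean was 1.33 times its lowest. Cct7, of the same ring, lay between 144 and 267 CPM, and 1.39 times separated its group means. Dnajb12, a J protein of the endoplasmic reticulum membrane, had group means within 1.44 times of each other, and Bag1, an exchange factor of HSP70, within 1.59 times. Hspb3 was at the other end, with a highest group mean (control mimic, vehicle) 55.1 times its lowest (miR-455, doxorubicin). The ratios take the highest and lowest of 8 groups, so they describe range and are no test of a difference.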
